A study of Rattus norvegicus with 18 samples.

Results

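The NF-kB module examined here comprises 8 listed genes: the cytokines Tnf and Il1b, the transcription factor subunits Nfkb1 and Nfkb2, the inhibitors Nfkbia and Tnfaip3, and the adhesion molecules Vcam1 and Icam1. Members were taken as every probe set whose gene symbol in the annotation column of the deposited ratio table is on that list. This gave 8 probe sets of 31099 on the array, for 7 genes of 14001 with a symbol, with 2 for Tnf (1387691_at and 1391384_at). Tnfaip3, which encodes the ubiquitin-editing brake on NF-kB known as A20, had 0 probe sets by symbol or by accession and has no values here.

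The livers came from Sprague-Dawley rats aged 12 weeks and were measured on 18 Affymetrix arrays in 6 groups of 3. The groups were normal liver at 0 h and, all at 2 h after surgery, sham operation, partial hepatectomy (PH, removal of part of the liver), and PH combined with sympathectomy (SPH), with vagotomy (VPH) or with total denervation of the liver (TDPH). The labels name the arrays of a group technical replicates, so SDs and p-values describe the spread between arrays, n counts arrays, and the sources used here do not give the number of animals. There was no unoperated group at 2 h and no denervated group without PH. The operation and the elapsed time therefore cannot be told apart in sham liver. In SPH, VPH and TDPH, the surgery on the nerves and an altered answer to PH cannot be told apart either.

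NF-kB is a family of dimeric transcription factors that is held in the cytoplasm by IkB proteins such as the product of Nfkbia. Signals from the receptors for tumour necrosis factor, interleukin-1 or bacterial products activate a kinase complex that marks IkB for destruction, after which the dimers enter the nucleus. Among the genes they are known to induce are those of their own subunits and inhibitors, of cytokines, and of adhesion molecules on endothelium that hold leukocytes. In liver, the pathway is known as part of the early priming of hepatocytes after loss of tissue, with Kupffer cells as a source of Tnf.

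RefSeq promoter sequences (assembly GRCr8) matched all 8 listed genes, and the 250 bases before each gene start were searched on both strands. The motifs were GGAAANNCC, in which N is any base, and the longer general kB consensus, known by name as the NF-kB binding motif; matches of the 2 motifs often overlap. The motifs were chosen after the promoters had been read. Of 33469 rat promoters of the same length, 5.19% held the first motif, 3.54% the second and 7.65% either. Matches were found for Nfkb2, Nfkbia, Tnfaip3, Vcam1 and Icam1, and these letters were not in the windows of Nfkb1, Tnf and Il1b. The stretches of the 4 genes that were measured and hold a match are shown 5′ to 3′ on the gene's strand, with the matched bases in capitals. They lie at chr1:255108124-255108373 (plus strand) for Nfkb2, chr6:78597073-78597322 (minus) for Nfkbia, chr2:206742784-206743033 (minus) for Vcam1 and chr8:27829595-27829844 (plus) for Icam1.
Nfkb2: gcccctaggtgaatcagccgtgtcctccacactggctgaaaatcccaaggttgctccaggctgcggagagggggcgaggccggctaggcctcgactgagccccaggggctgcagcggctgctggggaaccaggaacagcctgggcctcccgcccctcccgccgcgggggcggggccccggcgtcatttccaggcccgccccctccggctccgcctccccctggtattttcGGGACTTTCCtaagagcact
Nfkbia: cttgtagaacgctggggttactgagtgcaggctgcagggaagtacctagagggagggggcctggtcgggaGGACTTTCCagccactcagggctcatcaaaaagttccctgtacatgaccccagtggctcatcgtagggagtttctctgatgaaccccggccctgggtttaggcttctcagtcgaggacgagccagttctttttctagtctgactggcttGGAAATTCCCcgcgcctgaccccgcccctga
Vcam1: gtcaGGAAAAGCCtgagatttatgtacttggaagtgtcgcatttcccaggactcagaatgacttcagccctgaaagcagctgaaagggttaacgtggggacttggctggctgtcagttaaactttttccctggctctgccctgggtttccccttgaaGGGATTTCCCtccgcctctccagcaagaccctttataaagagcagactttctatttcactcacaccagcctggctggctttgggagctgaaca
Icam1: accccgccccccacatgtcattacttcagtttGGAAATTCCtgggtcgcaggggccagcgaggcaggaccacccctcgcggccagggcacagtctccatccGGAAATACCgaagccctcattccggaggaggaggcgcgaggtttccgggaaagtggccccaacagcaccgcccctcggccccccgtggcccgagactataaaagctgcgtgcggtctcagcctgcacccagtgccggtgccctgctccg
The Nfkb2 match ended 11 bases before the start and the nearer Nfkbia match 22 bases before it. In Vcam1, the stretch that matched both motifs lay 93 to 84 bases before the start. Icam1 held 2 matches of GGAAANNCC and 0 of the consensus. A match is a description of letters, not of a bound site.

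**Figure D1:**
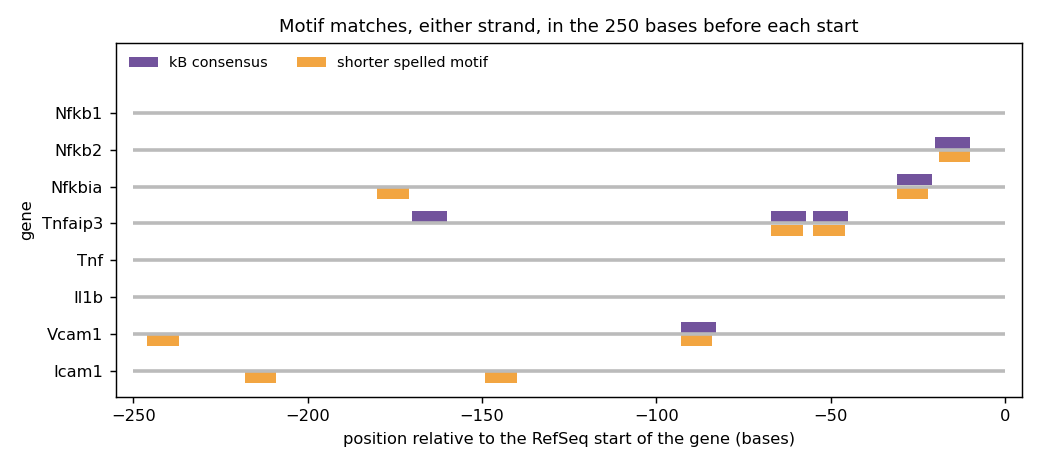
Positions of matches to the 2 motifs, on either strand, in the 250 bases before the RefSeq start of each listed gene (x axis, bases; purple, kB consensus; orange, the motif GGAAANNCC). Nfkb2, Nfkbia, Tnfaip3 and Vcam1 have a stretch that matches both motifs, Icam1 has 2 matches to GGAAANNCC alone, and Nfkb1, Tnf and Il1b have none.

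Signals are the linear intensities deposited by the authors, scaled to a trimmed mean of 500 on every array. Differences are between group means of log2(signal + 12), a scale that understates changes of dim probe sets, and were fitted with limma over all 18 arrays and 22103 probe sets. A difference was called, and only then described as a rise or a fall, at a Benjamini-Hochberg adjusted p under 0.05 and at least 2-fold. Signals of different probe sets are not comparable in level. The liver markers Alb, Apoa1, Ttr, Tf and Serpina1 had percentile ranks of 99.6 or more on every array. The arrays of SPH stood apart from one another: their summed neutrophil markers were 44837, 26798 and 20817 and their summed lymphocyte markers 8350, 10337 and 22576. The lymphocyte sums and their spread were mostly those of 1 gene, Cd74, at 11646 ± 7383 in SPH (mean signal ± SD, n = 3). The lymphocyte markers Nkg7 and Cd8a read 193 ± 46.9 and 80.3 ± 26.1 there. The ranges of the neutrophil and lymphocyte sums were narrower in the other groups. The SPH differences of Il1b, Nfkb2, Icam1 and Vcam1 from PH are therefore given without single SPH arrays as well.

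Of the 7 member probe sets that passed the filter on dim signals, Vcam1 and Nfkb1 rose after PH relative to sham operation, and Vcam1 and Il1b fell after sham operation relative to normal liver. Nfkb1, and with a smaller difference Nfkbia, stood above normal liver after PH, whereas Vcam1 did not and Il1b stood below it. No member was called when SPH, VPH or TDPH was set against PH. The denervated groups differed from each other in Il1b alone among the called members, a call that was lost without SPH replicate 1, without TDPH replicate 3 and in 2 other settings. These comparisons share arrays: the sham arrays enter the first 2, and the PH arrays enter every comparison of a denervated group with PH. The comparisons of denervated groups with each other hold no PH arrays but share the arrays of SPH, VPH and TDPH.

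**Figure D2:**
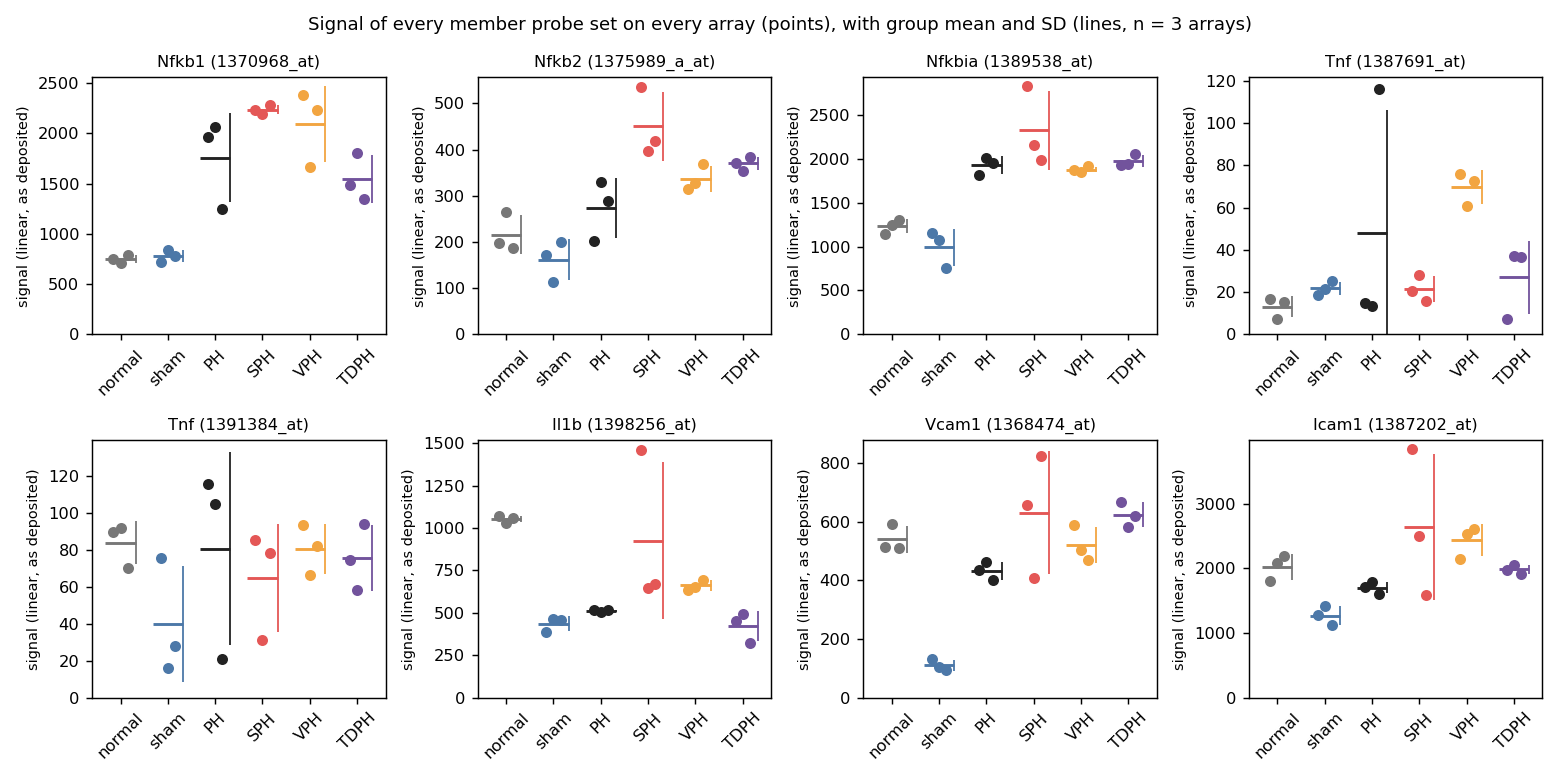
Deposited linear signal (y axis, starting at 0) of each of the 8 member probe sets on every array, by group (x axis); points are arrays, horizontal lines group means and vertical lines 1 SD, n = 3, drawn down to 0 at most. Vcam1 is lowest in the 3 sham arrays, Nfkb1 is at 1249 or more on all arrays with PH and at 836 or less on the others, and both Tnf probe sets stay at or below 116.

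The cytokine Tnf was near background. Probe set 1387691_at read 16.7, 7.43 and 15.1 in normal liver, 18.6, 21.4 and 25.1 after sham operation, 14.9, 13.4 and 116 after PH, 20.3, 28.2 and 15.8 in SPH, 75.7, 60.6 and 72.6 in VPH, and 7.07, 37.3 and 36.8 in TDPH. It exceeded the 40th percentile of its array, which was 76.0 to 99.4, on 1 of 18 arrays, and it was not tested. The VPH arrays were together above those of every other group but for the single PH array at 116. A further signal column under the VPH heading of the authors' deposited ratio table, which equals none of these arrays, gives 17.8 for this probe set.

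The other Tnf probe set, 1391384_at, exceeded that percentile on 4 arrays and was tested. It read 89.6, 91.8 and 70.5 in normal liver, 75.4, 16.3 and 28 after sham operation, and 116, 105 and 20.7 after PH. It then read 85.4, 31.4 and 78.1 in SPH, 93.4, 66.4 and 82.0 in VPH and 74.6, 58.4 and 94 in TDPH. Every group overlapped the next in the order of means, from normal liver down through VPH, TDPH, PH and SPH to sham. The 2 probe sets disagreed on PH replicate 3, which was the highest array for the first and among the lowest for the second. With an SE of 0.51, this probe set differed by 0.77 between PH and sham (adjusted p = 0.318 in limma, interval -0.3 to 1.84), and without PH replicate 3 the difference was 1.41 (adjusted p = 0.0446) and was called. With all arrays in the fit, no difference in Tnf was detectable at these levels.

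Il1b, which encodes interleukin-1 beta, a cytokine released mainly by activated macrophages, was highest in normal liver, at 1072, 1032 and 1056. Sham liver read 384, 466 and 458, and PH liver 517, 505 and 514. The values were 1459, 644 and 670 in SPH, 634, 652 and 695 in VPH, and 452, 495 and 325 in TDPH. All normal arrays lay above all arrays of the other groups except SPH replicate 1, the highest of the series. In the order of means, SPH overlapped both normal liver above it and VPH below it, VPH, PH and sham did not overlap one another, and TDPH overlapped sham.

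Il1b fell by 1.25 on the log2 scale from normal to sham liver (SE 0.21, adjusted p = 0.000196 in limma). After PH it was not called against sham (0.23, interval -0.21 to 0.67, adjusted p = 0.483). It remained below normal liver by a called difference of -1.02 (SE 0.21, adjusted p = 0.00074), which was under 2-fold at -0.92 with a pseudocount of 90, -0.9 after quantile normalization and -0.8 when each array was centred on its median. Summed signals of 10 of 12 Kupffer cell and macrophage markers, none of them at 0, were 42644 to 44862 in normal liver. They were 33823 to 35478 after sham operation and 42198 to 42937 after PH. The median marker difference from normal liver was -0.45 for sham (2 of 10 called, both lower) and -0.11 for PH. After PH 3 of the 10 were higher than in normal liver, and 1 was called, Adgre1, which was lower (898 ± 129 against 2039 ± 129, -1.18). The part of these markers in the result was not tested. In bulk tissue, fewer cells of a type and less RNA per cell cannot be told apart.

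Nfkb1 encodes p105, the precursor of the p50 subunit. It read 746, 712 and 789 in normal liver and 719, 836 and 776 after sham operation. After PH it read 1960, 2064 and 1249, in SPH 2231, 2198 and 2284, in VPH 2380, 1666 and 2238, and in TDPH 1484, 1810 and 1349. All arrays with PH lay above all without it. Among the groups with PH, neighbours in the order SPH, VPH, PH and TDPH overlapped, and normal and sham liver overlapped as well.

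Nfkb1 rose 2.19-fold from sham to PH liver (log2 difference 1.13, SE 0.15, adjusted p = 1.45e-05 in limma). Against normal liver the rise was 2.27-fold (1.18, adjusted p = 4.78e-06). Leaving out single arrays gave 1.0 to 1.36 and 1.05 to 1.41. Between sham and normal liver the difference was 0.05 (interval -0.27 to 0.37, adjusted p = 0.891).

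Nfkb2, which encodes p100, the precursor of p52 in the alternative arm of the pathway, was dimmer. The arrays read 198, 264 and 187 in normal liver, 172, 114 and 200 after sham operation, and 202, 330 and 288 after PH. They read 536, 398 and 418 in SPH, 314, 328 and 368 in VPH, and 372, 354 and 384 in TDPH. SPH stood above all other groups without overlap, while TDPH, VPH, PH, normal and sham each overlapped the next. Nfkb2 was 1.65 times as high after PH as after sham operation (log2 difference 0.72, SE 0.2, adjusted p = 0.0125), which passed the p threshold but not the 2-fold threshold, and PH overlapped normal liver (0.31, adjusted p = 0.262).

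Nfkbia encodes IkB-alpha, the inhibitor that NF-kB itself induces. The signals were 1144, 1244 and 1302 in normal liver, 1149, 1072 and 755 after sham operation, and 1817, 2013 and 1955 after PH. They were 2826, 2156 and 1985 in SPH, 1868, 1851 and 1912 in VPH, and 1930, 1938 and 2058 in TDPH. All arrays with PH exceeded all arrays without it, and the groups with PH each overlapped the next in the order SPH, TDPH, PH and VPH.

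Nfkbia was 1.96 times as high after PH as after sham operation (log2 difference 0.97, SE 0.12, adjusted p = 8.61e-06), just short of the 2-fold threshold. It was 1.56 times as high as in normal liver (0.64, adjusted p = 0.00045). Centring each array on its median gave 1.13 against sham, which was called, as were the values of 1.09, 1.04 and 1.01 without sham replicate 1, sham replicate 2 or PH replicate 1. Sham liver was at -0.33 against normal liver (adjusted p = 0.085).

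Vcam1 encodes the endothelial ligand of the integrin alpha-4 beta-1 on lymphocytes and monocytes. Normal liver read 515, 591 and 510, and sham liver 132, 104 and 93.9. The PH arrays read 435, 462 and 400, those of SPH 656, 408 and 824, those of VPH 589, 503 and 469, and those of TDPH 666, 581 and 620. Sham liver was far below every other group. PH lay between sham and VPH without overlapping either, while VPH, normal liver, SPH and TDPH each overlapped the next.

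Vcam1 fell 4.55-fold from normal to sham liver (log2 difference -2.18, SE 0.18, adjusted p = 2.9e-08 in limma) and rose 3.67-fold from sham to PH liver (1.88, SE 0.18, adjusted p = 2.14e-07). Both differences use the same sham arrays, and leaving out single arrays gave -2.31 to -2.09 and 1.78 to 2.0. Between PH and normal liver the difference was -0.31 (interval -0.69 to 0.07, adjusted p = 0.216) and was not called. The authors' deposited table gives a mean log2 ratio to normal liver of -1.778 for sham and -0.244 for PH.

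Other measures moved with Vcam1 in sham liver. Summed signals of 8 of 10 endothelial markers were 6899 to 7074 in normal liver, 4856 to 5205 after sham operation and 6911 to 7268 after PH. For 11 of 13 lymphocyte markers the sums were 22701 to 23478, 3806 to 4227 and 9211 to 9332 in the same order. Most of each sum was the single gene Cd74, at 20358 ± 502, 2718 ± 135 and 7696 ± 221. The median lymphocyte marker difference was -1.32 for sham against normal liver (7 of 11 called, all lower). For PH against sham it was 0.39 (3 of 11 called, all higher). The median endothelial marker difference was -0.44 for sham against normal liver and 0.18 for PH against sham, with 0 of 8 called in each. For PH against normal liver it was -0.17, with 0 called and 2 of the 8 higher after PH. None of the summed markers was at 0, and Vwf, Clec4g and Cd79a were among those not tested. For 2 of 3 red cell markers the sums were 4267 to 4792, 14496 to 15018 and 12388 to 12853, and for 4 of 5 pancreas markers 2802 to 3414, 844 to 1076 and 1061 to 1262. The pancreas sums followed the single gene Cpa1, at 2262 ± 425, 193 ± 34.1 and 144 ± 36.8, the 1 of 4 called against normal liver. The median pancreas marker difference from normal liver was -0.54 for sham and 0.22 for PH, with 3 of the 4 higher after PH. Actb, whose 3′ over 5′ signal is used to judge how intact RNA was, gave ratios of 1.83 to 1.93 in normal liver, 2.11 to 2.25 after sham operation and 1.65 to 1.85 after PH. The part of these in the result was not tested.

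**Figure D3:**
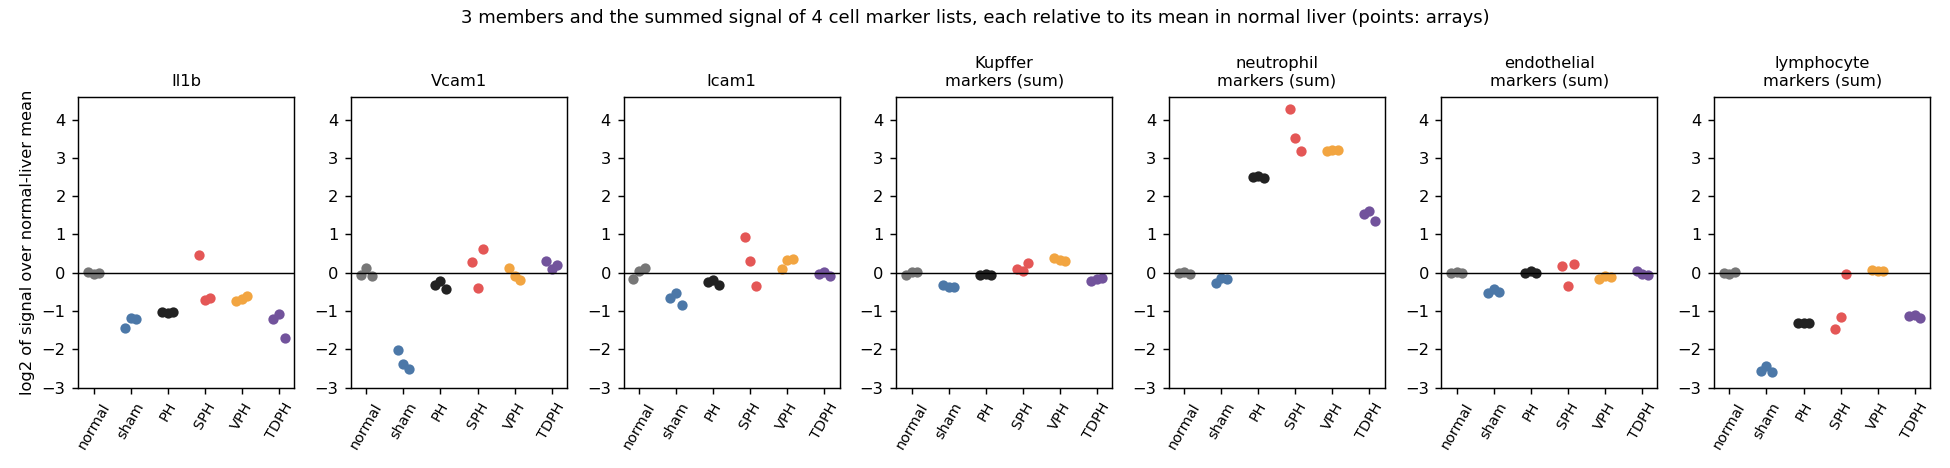
Signal of Il1b, Vcam1 and Icam1 and summed signals of 4 cell marker lists on each array, as log2 of the value over its mean in normal liver (y axis), by group (x axis); points are arrays. Vcam1 and the lymphocyte sum are both lowest in sham liver, and the neutrophil sum is above normal in all groups with PH, with 44837 on the SPH array that also has the highest Il1b and Icam1. The lymphocyte sum is mostly Cd74, and the neutrophil sum in VPH includes Lcn2 at a mean of 6510.

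Icam1 encodes the endothelial and hepatic ligand of the leukocyte integrins LFA-1 and Mac-1. It read 1805, 2081 and 2186 in normal liver, 1276, 1414 and 1122 after sham operation, and 1716, 1786 and 1607 after PH. In SPH it read 3844, 2498 and 1596, in VPH 2150, 2539 and 2615, and in TDPH 1983, 2056 and 1915. Sham liver was below all other groups without overlap. Next came PH, below TDPH without overlap, and TDPH, normal liver, VPH and SPH each overlapped the next.

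The Icam1 difference between sham and normal liver was -0.67 (SE 0.19, adjusted p = 0.0167), under 2-fold, and that between PH and sham was 0.42 (adjusted p = 0.117). It thus had the same order as Vcam1 (normal above PH above sham) with smaller differences, none of them called. The difference between the 2 adhesion molecules was not tested.

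**Figure D4:**
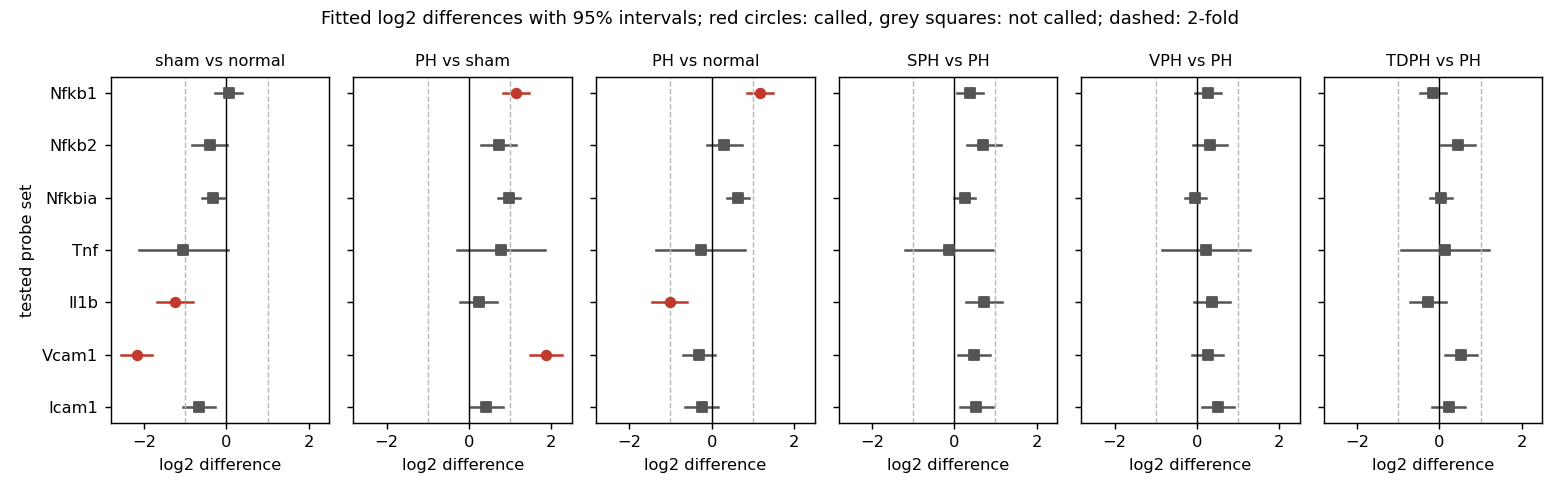
Fitted log2 differences (x axis) of the 7 tested member probe sets (y axis) in 6 comparisons, with 95% intervals; red circles were called, grey squares were not, and dashed lines mark 2-fold. Calls are Vcam1 and Il1b for sham against normal, Vcam1 and Nfkb1 for PH against sham, and Nfkb1 and Il1b for PH against normal, and the panels of the denervated groups have none.

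Across the members, 2 of 7 tested probe sets were called for sham against normal liver, both lower, where 3.02% of all tested probe sets were called. For PH against sham 2 of 7 were called, both higher, against 4.36% of all, and for PH against normal liver 2 of 7, with 1 in each direction, against 7.3%. The median member difference was -0.67, 0.77 and -0.24 in these comparisons, where the median over all tested genes was -0.02, -0.09 and -0.13. The low number of members limits what their counts can show.

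SPH, VPH and TDPH were each compared with PH to ask whether the nerve supply alters the members' levels at 2 h. By limma, 0 of 7 were called for SPH (background 1.48%), 0 for VPH (1.8%) and 0 for TDPH (1.65%). At an unadjusted p under 0.05 the counts were 5, 1 and 2, where 26.3%, 24.9% and 29% of all tested probe sets had such a p. The largest differences for SPH were those of Il1b (0.73, SE 0.21, adjusted p = 0.0222) and Nfkb2 (0.71, SE 0.2, adjusted p = 0.0197), both under 2-fold. Without SPH replicate 1 they were 0.35 (adjusted p = 0.091) and 0.58 (adjusted p = 0.0874).

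Icam1 differed from PH by 0.54 in SPH (interval 0.15 to 0.94, adjusted p = 0.061) and by 0.51 in VPH (interval 0.12 to 0.9, adjusted p = 0.0874), with SPH overlapping PH and VPH not. Without SPH replicate 1 the first was 0.23, and without SPH replicate 3 it was 0.86. Vcam1 differed from PH by 0.48 in SPH, 0.26 in VPH and 0.52 in TDPH, the last with an interval of 0.13 to 0.9 and an adjusted p of 0.0572. The SPH value was 0.75 (adjusted p = 0.00191 in limma) without SPH replicate 2 and 0.26 without SPH replicate 3. Nfkbia in VPH and TDPH lay within -0.3 to 0.3 of PH by its intervals, at -0.04 and 0.04.

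The 3 denervated groups were also compared with one another. Between SPH and VPH, 0 of 7 members were called by limma (1 at an unadjusted p under 0.05), against 2.77% of all tested probe sets (31.9% at an unadjusted p under 0.05). For TDPH against SPH 1 of 7 was called, against 1.66%. This was Il1b, which fell by 1.02 on the log2 scale (SE 0.21, adjusted p = 0.00206). For TDPH against VPH 0 of 7 were called (2 at an unadjusted p under 0.05), against 2.82% (31.9%), with Il1b at -0.65 (adjusted p = 0.0327).

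The contrast TDPH - SPH - VPH + PH asks whether the difference made by both operations departs from the sum of the single ones. Il1b was called at -1.38 (SE 0.3, adjusted p = 0.00368), 1 of 7 members against 3.42% of all tested probe sets. Nfkb1 was at -0.81 (adjusted p = 0.0167) and Icam1 at -0.83 (adjusted p = 0.0458), both under 2-fold. Il1b was 661 ± 31.3 (mean signal ± SD, n = 3) in VPH, 925 ± 463 in SPH and 424 ± 88.4 in TDPH. Without SPH replicate 1 the Il1b values were -0.64 for TDPH against SPH (adjusted p = 0.00258) and -1.0 for the contrast (adjusted p = 0.000838), both under 2-fold (the second barely) and not called; TDPH against SPH was -0.84 and not called without TDPH replicate 3. A pseudocount of 90 (-0.91) and a fit of these groups alone (adjusted p = 0.0653) also ended the TDPH against SPH call. Icam1 in the contrast was -1.15 and called without SPH replicate 3. Summed neutrophil markers (6 of 9, none at 0) were 12847 to 13285 in PH, 20817 to 44837 in SPH, 20931 to 21253 in VPH and 5962 to 7046 in TDPH. The VPH sums hold the single gene Lcn2 at 6510 ± 55.1. Its signal was 1961 ± 1158 for SPH, 1153 ± 99.6 for TDPH and 1060 ± 121 for PH. Against PH, 4 of 6 neutrophil markers were called for SPH, all higher (list median 1.17). For VPH only Lcn2 was called (list median 0.32), and for TDPH 2 were, both lower (-0.49). Mpo, Camp and Ngp were not among the genes tested, and the part of these markers in the result was not tested.

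The wider pathway was described by lists of genes other than the members. Among 24 tested receptors, adaptors, kinases and subunits, 2 rose from sham to PH liver and 0 fell, where 4.09% of all tested genes were called. They were Irak2, a kinase that relays interleukin-1 and Toll-like receptor signals (218 ± 13.4 to 542 ± 46.5, log2 difference 1.27), and Il1r1, the signalling receptor for interleukin-1 (458 ± 33.0 to 1053 ± 44.8, 1.18). The list median was 0.02. From normal to sham liver 1 of 24 fell, the receptor-interacting kinase Ripk2 (-1.01), against 3.19% of all genes. Set against normal liver, 1 was higher and 2 lower after PH (median -0.12), where 7.3% of all tested probe sets were called.

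Of 13 tested genes listed as negative regulators, 4 rose from sham to PH liver and 0 fell, with a list median of 0.16, where 4.09% of all genes were called. Set against normal liver, 4 were higher and 0 lower after PH (median 0.29), where 7.3% of all tested probe sets were called. Il1r2, the decoy receptor for interleukin-1, was called higher, with signals of 22.1 ± 17.2 after sham operation and 272 ± 16.8 after PH. Every sham array read it under its own 40th percentile, which was 89.8 to 97.4, so the size of that difference is not exact. Il1rn, the interleukin-1 receptor antagonist, went from 241 ± 29.3 to 1735 ± 30.9 (2.79, adjusted p = 6.1e-13). Nfkbiz, a nuclear IkB protein, rose by 1.9 from sham to PH liver. It rose by 1.14 from normal to sham liver, where it was the 1 gene of this list called (3.19% of all genes). Zfp36, which destabilises the mRNA of Tnf and other cytokines, rose by 1.29. Beside these rises, Il1b itself was 436 ± 45 after sham operation and 512 ± 6.2 after PH.

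Of 42 tested genes known as NF-kB targets, 3 rose and 9 fell from normal to sham liver (median -0.52, 3.19% of all genes called), and 12 rose and 0 fell from sham to PH liver (median 0.58, 4.09%). Set against normal liver, 11 were higher and 8 lower after PH (median 0.07), where 7.3% of all tested probe sets were called. In sham liver the neutrophil-attracting chemokine Cxcl1 rose by 3.02, while the anti-apoptotic Bcl2a1 (-1.9), the chemokine Cxcl10 (-1.89) and the chemokine Ccl4 (-1.79) fell. Among those that rose from sham to PH liver were Lcn2, an iron-sequestering protein (81.7 ± 11.1 after sham operation, 1060 ± 121 after PH), the monocyte chemokine Ccl2 (13.5 ± 6.55 and 209 ± 13.0) and the neutrophil chemokine Cxcl2 (66.5 ± 13.6 and 609 ± 103). Every sham array read these 3 genes too under its own 40th percentile, so no size is given for their differences. Lcn2 is also in the neutrophil marker list. That list's summed signal was 1922 to 2109 in sham liver and 12847 to 13285 after PH.

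Of 27 tested adhesion molecules and ligands, 4 fell from normal to sham liver (median -0.25, 3.19% of all genes called) and 3 rose from sham to PH liver (median 0.27, 4.09%). Those that fell were the integrin chains Itgam (-1.47) and Itgal (-1.45), which pair with a common beta chain to bind Icam1, the endothelial Icam2 (-1.11) and the hyaluronan receptor Cd44 (-1.1). Those that rose included thrombomodulin, Thbd (3.01), and the endothelial junction protein Esam (1.24). Set against normal liver, 2 were higher and 2 lower after PH (median -0.12), where 7.3% of all tested probe sets were called. Itgal was at 2012 ± 63.2 in normal liver, 730 ± 46.6 in sham liver and 731 ± 15.2 after PH. Vcam1 was at 539 ± 45.5, 110 ± 19.8 and 432 ± 31.3 in the same groups.

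**Figure D5:**
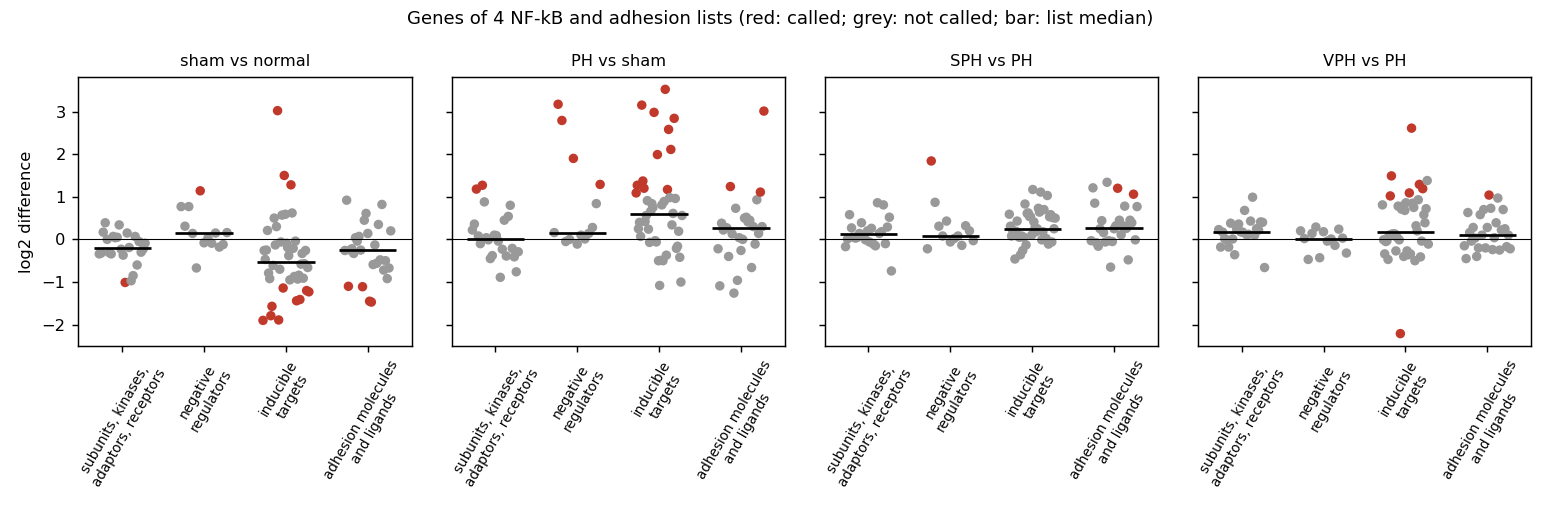
Log2 difference (y axis) of each tested gene of 4 lists (x axis: pathway core, negative regulators, inducible targets, adhesion molecules and ligands) in 4 comparisons; red points were called, grey points were not, and bars are list medians. The medians of the inducible targets are -0.52 for sham against normal and 0.58 for PH against sham.

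The same lists were counted for the denervated groups against PH. For SPH, 0 of 24 core genes (8 at an unadjusted p under 0.05), 1 of 13 negative regulators, 0 of 42 targets (18 at an unadjusted p under 0.05) and 2 of 27 adhesion genes were called by limma, against 1.23% of all genes called and 30.5% at an unadjusted p under 0.05. All of those called were higher, among them Il1r2 (1.84) and Itgam (1.2). With each SPH array left out in turn, a check of the lists chosen after seeing the data, Il1r2 was called at 1.46 to 2.07 and Itgam at 1.08 to 1.34. The adhesion count was 1 without SPH replicate 1, 3 without replicate 2 and 2 without replicate 3. The target count was 1 without SPH replicate 2 and the core count 1 without SPH replicate 3; the regulator count was 1 in each case. For VPH, 7 of 42 targets were called, 6 higher and 1 lower, and 1 adhesion gene, Itgal (1.04), against 1.86%. They included Lcn2 (2.61), the T-cell chemokine Ccl5 (1.49) and the immunoproteasome subunit Psmb9 (1.29), which rose, and Cxcl2, which fell by 2.21. Lymphocyte marker sums were 23639 to 24140 in VPH and 9211 to 9332 in PH. Cd74 alone made up 21130 ± 111 and 7696 ± 221 of these, and the lymphocyte list median was 0.76 (3 of 11 called, all higher). Kupffer cell and macrophage sums were 54670 to 58021 and 42198 to 42937, and neutrophil sums 20931 to 21253 and 12847 to 13285. The neutrophil sums include Lcn2 itself, at 6510 ± 55.1 in VPH and 1060 ± 121 in PH. Lcn2 was the 1 of 6 neutrophil markers called, and that list's median was 0.32. The part of the markers in the result was not tested. For TDPH, 0 genes of the 4 lists were called, with 11, 3, 19 and 6 at an unadjusted p under 0.05 in the core, regulator, target and adhesion lists, against 1.42% of all genes called and 33.3% at an unadjusted p under 0.05.

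For each member gene, the genes whose log2 signal followed it most closely over the 18 arrays are given as a description, since the arrays share groups. Nfkb1 was most like Mafk and Lbp (Pearson r = 0.951 for both). Nfkb2 was most like Tnfrsf1b (0.914), a receptor for tumour necrosis factor, followed by Macir (0.903) and Pde4b (0.899). Nfkbia was most like Arid5b (0.952), Ets2 (0.951) and Ddx3x (0.95). Vcam1 was most like Dock11 (0.955), Bcl2a1 (0.904) and Chka (0.892), and Icam1 was most like Acsl5 (0.921), Coro1a (0.918) and Plek (0.895). Il1b was most like Sc5d (0.889), Slc15a4 (0.88) and Defa5 (0.871), and the dim Tnf probe set had its highest value with Ccser2 (0.776).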

How the data were processed

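RNA of rat liver was hybridised to 18 arrays, 5 ug of RNA each per the labels' protocols. The authors deposited an intensity per probe set on a linear scale, for which GCOS 2.0 is named in the submitters' processing notes; the mean without the lowest and highest 2% was 500 on every array. A ratio table, also deposited, gives the signals again with log2 and linear ratios to normal liver, per the file headers; of its 18 signal columns 17 equal an array within 0.06. Gene symbols came from that table and were updated through RefSeq. The sources used here do not give the background correction.

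Signals were used as log2(signal + 12). After removal of 57 controls, 22103 probe sets that exceeded the array's 40th percentile 3 or more times entered limma 3.58.1 in R 4.3.3 (lmFit, eBayes with trend, group means over all 18 arrays, 12 residual degrees of freedom), two-sided, adjusted by Benjamini-Hochberg within each of 10 comparisons. For gene counts, the probe set with the highest mean stood for each of 11517 genes. The script was tested on simulated data. Members and lists were chosen with earlier results of these data known. Named list genes are at most 4 per list and comparison, those with the largest called differences among genes whose arrays do not overlap; the 3 most similar genes per member are given by Pearson correlation. Some genes that these rules take are left out. Alternatives covered pseudocount, normalization, filter, fold threshold, eBayes trend, groups fitted, replicate block, deposited ratios and single arrays left out. The number of arrays limits the precision.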

Additional observations from a re-analysis of the deposited data

Results flagged for a closer look

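Il1b differed between denervated groups that were each set against PH. TDPH stood below SPH by a log2 difference of -1.02 in the direct test, and the contrast TDPH - SPH - VPH + PH was -1.38. SPH replicate 1, at 1459, was the highest array of the series for Il1b, and without it the 2 values were -0.64 and -1.0, neither of them called.

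A signal column under the VPH heading of the deposited ratio table equals no array of the value table. It entered none of the main fits and only an alternative setting given below, in place of VPH replicate 3. In this column the members read 2278 for Nfkb1, 319 for Nfkb2, 1828 for Nfkbia, 84.3 for the tested Tnf probe set, 591 for Il1b, 573 for Vcam1 and 2431 for Icam1, each above the highest sham array. The other Tnf probe set, which was not tested, read 17.8, below the highest sham array (25.1) and below the 3 VPH arrays (60.6 to 75.7). The correlation of this extra column with the 3 VPH arrays was 0.953 to 0.9541. The sources used here do not say what the column holds.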

How the results depend on the processing

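Of 70 member differences (7 probe sets in 10 comparisons), 16 changed sign in at least 1 setting, the deposited ratios included; 8 of them were of Tnf and 0 of the 16 were called. Under centred arrays TDPH against PH became -0.12 for Nfkbia and -0.02 for Tnf, and TDPH against SPH became -0.04 for Vcam1. Quantile normalization gave -0.01 for Tnf (TDPH against PH) and -0.03 for Vcam1 (TDPH against SPH), and a pseudocount of 1 gave -0.01 for Tnf in the non-additivity contrast. With single arrays left out, the ranges that crossed 0 were, for Tnf, PH against normal -0.62 to 0.36, SPH against PH -0.76 to 0.25, VPH against PH -0.42 to 0.57, TDPH against PH -0.5 to 0.48, SPH against VPH -0.55 to 0.03, TDPH against SPH -0.12 to 0.47, TDPH against VPH -0.23 to 0.06 and the contrast -0.33 to 0.67. The others were Nfkb1 at -0.003 to 0.1 (sham against normal) and -0.04 to 0.21 (SPH against VPH), Nfkbia at -0.01 to 0.07 (TDPH against PH), Il1b at -0.01 to 0.58 and Icam1 at -0.28 to 0.35 (SPH against VPH), and Vcam1 at -0.24 to 0.26 (TDPH against SPH). Called members numbered 1 for PH against normal under a pseudocount of 90, quantile normalization or centred arrays, where Il1b was at -0.92, -0.9 and -0.8. TDPH against SPH had 0 with a pseudocount of 90 or with only the compared groups fitted (Il1b adjusted p = 0.0653), and 0 to 1 with single arrays left out; the contrast had 0 to 2. With a fold threshold of 1.5 or none, sham against normal had 3, PH against sham 4 and PH against normal 3. In the same settings SPH against PH had 2, TDPH against VPH 1 and the contrast 3. With no fold threshold TDPH against SPH had 2. The deposited log2 ratios gave Nfkb1 the opposite sign for sham against normal (-0.24), TDPH against PH (0.24) and TDPH against VPH (0.13), and Tnf for the contrast (-0.01), all uncalled. The VPH signals deposited with these ratios hold the unmatched column and not VPH replicate 3. The VPH ratios, which enter TDPH against VPH and the contrast, may therefore rest on other arrays than the fit. With the replicate number as a block, counts were the same in each comparison (2 for PH against sham, 1 for TDPH against SPH). Over 45 same-numbered pairs of different groups, correlations of deviations from group means were low, at -0.027 to 0.058. Their median was 0.006, against -0.004 for different numbers. For 13 of 18 arrays, the mean correlation with arrays of other groups was highest for those of the same number. This is a hint from the data and not the design, and whether the numbers pair the arrays is not settled by it. Using the extra VPH column in place of VPH replicate 3, chosen after seeing the data, gave 0 for VPH against PH and 1 for the contrast. The cause of these changes was not tested, and low signal limits what can be said of Tnf.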
